A study of Mus musculus with 5 samples.

Results

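The genes described here were 9 genes of the p53 response and of senescence-associated growth arrest: Cdkn1a, Mdm2, Ccng1, Trp53inp1, Eda2r, Cdkn1b, Cdkn2a, Cdkn2b and Glb1. They were chosen by gene symbol among the 32285 rows of each count matrix, and 9 of the 9 were found, with 1 row each. Their UMIs (unique molecular identifiers, each standing for 1 captured RNA molecule) were summed in every library over the nuclei of 5 lineages, and the sums were compared between diets. The nuclei came from livers of male wild-type C57BL6/J mice. Chow libraries (n = 3) were from mice on regular chow and MASH libraries (n = 2) from mice on a diet inducing metabolic dysfunction-associated steatohepatitis (MASH), in which fat supplied 40 kcal%, fructose 20 kcal% and cholesterol 2% was added. Both diets were given for 5 months from 10 to 12 weeks of age. The labels do not say whether a library is 1 mouse or a pool, so p-values here measure the spread between libraries.

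p53 is a transcription factor that is kept low by the ubiquitin ligase Mdm2 and is released from it under DNA damage, oncogenic or metabolic stress. It then drives genes that halt the cell cycle, above all the cyclin-dependent kinase inhibitor Cdkn1a (p21), together with genes of death, repair and metabolism, and it raises its own inhibitor Mdm2, which closes a feedback loop. In chronic liver injury, lasting expression of Cdkn1a or of the inhibitors of the Cdkn2a locus in hepatocytes and cholangiocytes is widely used as a sign of senescence, along with a rise in lysosomal beta-galactosidase, the product of Glb1.

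Promoter sequences are shown for the p53 targets because they differ in whether a p53 site lies there, and for Eda2r because it was the member that passed the diet comparison. RefSeq windows on GRCm38.p6 ran from 250 bases before to 50 bases after each start, and 8 of the 9 members had at least 1 window (Trp53inp1 had none). The windows were searched for the p53 consensus half-site of 10 letters, with no mismatch, and for a full site of 20 letters (a pair of half-sites with no spacer), with at most 1 mismatch. Both are palindromic, so a match on 1 strand is a match on the other. Of 32851 windows of all genes, 8.36% held a half-site and 0.0883%, or 29 windows, a full site. Among the members, 3 genes held a half-site and 2 a full site. In the sequences below, read 5′ to 3′ on the strand of the gene, capitals mark the matches. For Cdkn1a (plus strand, window chr17:29090729-29091028) the full site lay 51 to 32 bases before the start, with a separate half-site upstream of it. That start is at the upstream end of the gene span given below. A further Cdkn1a window, named below, has another start, for which this distance does not hold. For Ccng1 (minus strand, window chr11:40755237-40755536) the full site lay 195 to 176 bases before the start. Mdm2 (minus strand, window chr10:117710709-117711008) held 1 half-site, 186 to 177 bases before the start. Eda2r (minus strand, window chrX:97377160-97377459) held none, as was also so of a second Cdkn1a window and of the windows of Cdkn1b, Cdkn2a, Cdkn2b and Glb1.
Cdkn1a: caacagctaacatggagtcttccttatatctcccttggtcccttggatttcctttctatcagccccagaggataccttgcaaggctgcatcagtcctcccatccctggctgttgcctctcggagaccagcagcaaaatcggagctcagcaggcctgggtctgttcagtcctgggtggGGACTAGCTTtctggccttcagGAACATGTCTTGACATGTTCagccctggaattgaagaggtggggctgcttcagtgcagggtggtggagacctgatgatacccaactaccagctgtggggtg
Ccng1: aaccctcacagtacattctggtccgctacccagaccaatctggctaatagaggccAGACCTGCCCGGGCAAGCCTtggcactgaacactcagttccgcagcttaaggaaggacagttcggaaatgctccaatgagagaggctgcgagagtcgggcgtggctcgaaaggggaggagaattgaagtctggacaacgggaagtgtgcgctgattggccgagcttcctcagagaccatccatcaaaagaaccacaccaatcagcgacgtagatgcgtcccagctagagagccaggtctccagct
Mdm2: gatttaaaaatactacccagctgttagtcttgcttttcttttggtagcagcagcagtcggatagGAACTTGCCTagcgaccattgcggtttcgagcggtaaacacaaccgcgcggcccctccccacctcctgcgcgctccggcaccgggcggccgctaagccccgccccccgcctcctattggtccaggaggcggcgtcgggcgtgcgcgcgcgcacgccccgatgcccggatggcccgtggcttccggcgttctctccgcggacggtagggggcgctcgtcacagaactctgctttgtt
Eda2r: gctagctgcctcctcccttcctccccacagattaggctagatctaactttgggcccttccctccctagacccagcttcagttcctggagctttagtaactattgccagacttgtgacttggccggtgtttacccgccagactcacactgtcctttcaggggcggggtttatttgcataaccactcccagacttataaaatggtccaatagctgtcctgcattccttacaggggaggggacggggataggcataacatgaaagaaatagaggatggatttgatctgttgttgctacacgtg
A match is a description of these letters and no evidence of binding. In the GENCODE M21 annotation of GRCm38, Cdkn1a spans 29090976 to 29100727 on chromosome 17, Ccng1 40748552 to 40755311 on chromosome 11, Mdm2 117688875 to 117710758 on chromosome 10 and Eda2r 97333840 to 97377216 on chromosome X. Cdkn2a (89274471 to 89294653) and Cdkn2b (89306299 to 89311039) are neighbours on chromosome 4. Of the 28 further p53 target genes listed for comparison, 22 had a window, 8 of these held a half-site and 0 held a full site.

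The 5 libraries held 35612373 to 49137377 UMIs, and 7969 to 11574 nuclei per library were kept. Lineages were rebuilt by clustering and named from marker genes, which gave 32858 hepatocyte-like, 1691 cholangiocyte-like, 3265 stellate-like, 2582 endothelial-like and 4472 immune-like nuclei, with 6602 left unassigned. Nearly all MASH hepatocyte-like nuclei fell in 1 cluster led by Rgs16, Themis and Nrg1, and Chow nuclei in other clusters that split by library. Themis, a T cell gene, also stood among the T and NK markers, and in that cluster no hepatocyte marker was in the top 10 genes, so the comparison of diets in hepatocyte-like nuclei was repeated on nuclei gated by Hnf4a UMIs alone, of which 96.1% lay in the hepatocyte-like clusters. That share was taken over all libraries together. It was 1372 of 1554 gated nuclei in MASH replicate 1 and 1257 of 1308 in replicate 2. The hepatocyte-like nuclei there numbered 4688 and 4775. In Chow replicates 1 to 3, 3132, 5686 and 5865 gated nuclei lay among 5819, 9223 and 8353, so the gate kept a smaller part in MASH. The splits of hepatocyte-like nuclei and the model of lineage by diet were not repeated with this gate. Only 19, 13 and 43 cholangiocyte-like nuclei were found in the Chow libraries, so that fit set 1 Chow library against both MASH libraries. From 0.254% to 0.399% of barcodes were shared between pairs of libraries. In hepatocyte-like nuclei, Chow replicate 3 stood apart, with a summed level of 12 acute-phase genes of 32290 CPM (UMIs scaled to a common library total) against 3114 to 4633 CPM in the other Chow libraries and 1417 to 1569 CPM in MASH. MASH replicate 1 had the highest median mitochondrial share (7.42%).

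In hepatocyte-like nuclei Eda2r rose in MASH, and it was the only member to pass the test there. The other 6 members tested lay at higher values in MASH, by 0.48 to 1.34 on the log2 scale, without passing it. Cdkn2a and Cdkn2b were close to absent. Values in this comparison are CPM scaled with TMM (a factor per library that sets the bulk of genes level). Summed levels of marker or gene lists are CPM without TMM scaling, here and below. Fold changes, standard errors (SE) and Benjamini-Hochberg adjusted p-values are from edgeR's quasi-likelihood test over 14962 genes. Of these, 13.9% passed an adjusted p of 0.05 in either direction and 9.22% as higher in MASH.

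**Figure D1:**
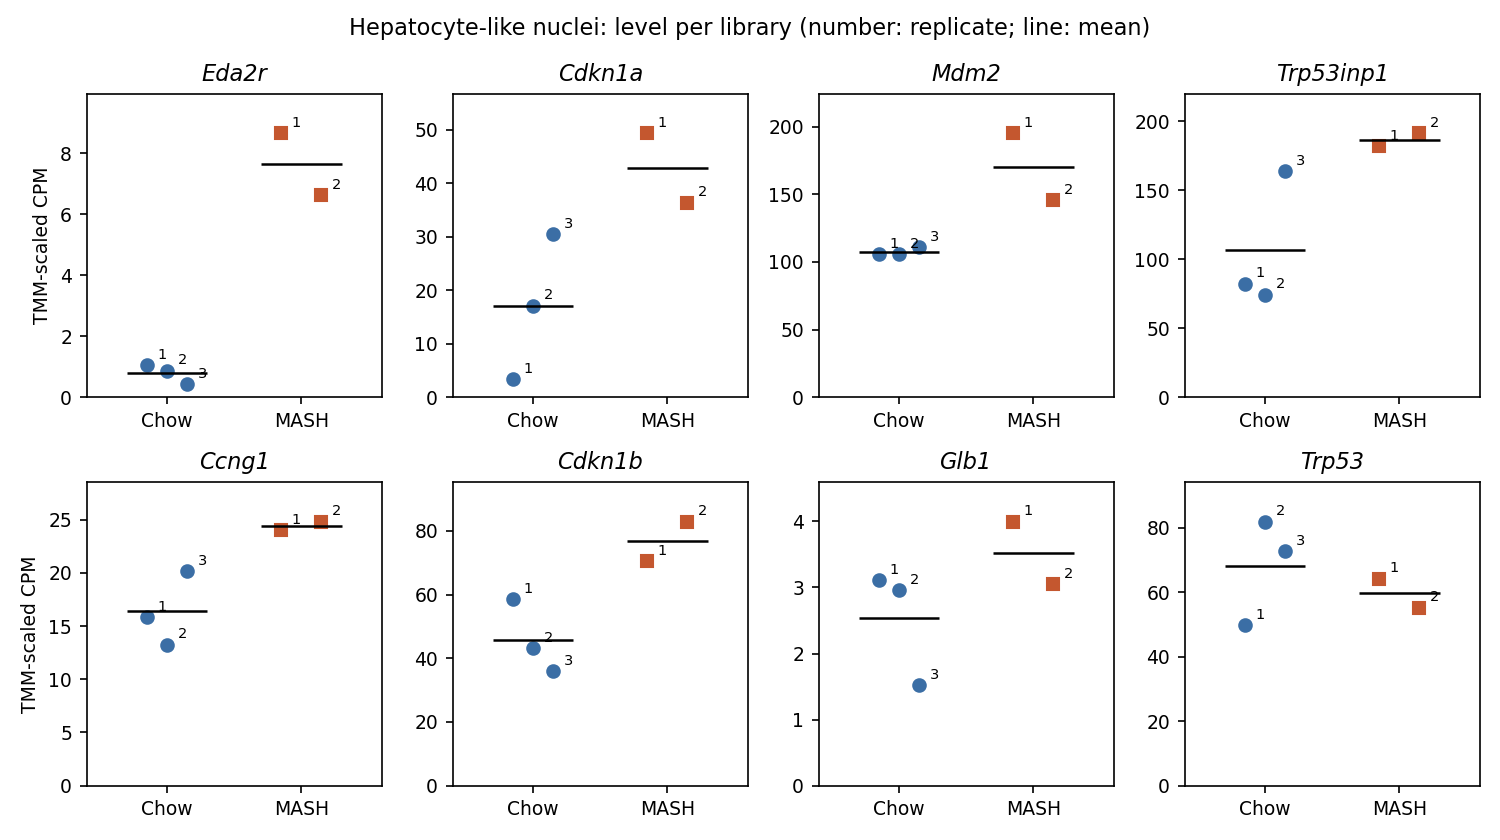
TMM-scaled CPM of each member except Cdkn2a and Cdkn2b, and of Trp53, in the hepatocyte-like sums, 1 point per library, Chow and MASH side by side. Both MASH points lie above the 3 Chow points for Eda2r, Cdkn1a, Mdm2, Trp53inp1, Ccng1 and Cdkn1b, with the widest gap in Eda2r and a wide Chow spread in Cdkn1a.

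Eda2r encodes a death receptor of the TNF receptor family, bound by ectodysplasin A2, and is a p53 target. Its level was 1.049, 0.8681 and 0.4303 CPM in Chow replicates 1 to 3 and 8.659 and 6.619 CPM in MASH replicates 1 and 2. Each MASH library was thus several times above the highest Chow library, with no overlap. The log2 fold change was 3.28 (SE 0.46, adjusted p 0.00889, edgeR). The counts behind it were small, 70 UMIs over the Chow sums and 371 over the MASH sums. With the Hnf4a gate it was 3.16 (adjusted p 0.0112, edgeR). Without MASH replicate 1 it was 3.07 (adjusted p 0.0887) and without MASH replicate 2 3.46 (adjusted p 0.0651, edgeR), so the call needed both MASH libraries while the size did not.

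Cdkn1a, which blocks cyclin-dependent kinases and is the best known arrest gene downstream of p53, was at 3.356, 17.11 and 30.42 CPM in Chow and 49.38 and 36.37 CPM in MASH. The Chow libraries differed from each other more than the nearest Chow and MASH libraries did. Its log2 fold change of 1.34 (SE 0.72, adjusted p 0.235, edgeR) did not pass. The Chow library with the highest Cdkn1a, replicate 3, was the one with the high acute-phase level, and it also had 1449 CPM of 15 immediate-early and stress genes against 744.7 to 787.0 CPM in the other Chow libraries. The part of these genes in the Cdkn1a values was not tested.

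Mdm2, the ligase that degrades p53, was the most even of the targets among Chow libraries. It stood at 105.6, 105.6 and 110.8 CPM in Chow and at 195.3 and 145.6 CPM in MASH. The log2 fold change was 0.67 (SE 0.24, adjusted p 0.0993, edgeR). Trp53inp1, a stress-induced protein that promotes p53 phosphorylation and autophagy, was at 82.43, 74.4 and 163.8 CPM in Chow and 182 and 191.5 CPM in MASH. Here Chow replicate 3 was close to MASH and the other Chow libraries far below. The log2 fold change was 0.81 (SE 0.37, adjusted p 0.175, edgeR), and 1.22 (adjusted p 0.0135) without Chow replicate 3. Ccng1, which encodes cyclin G1 and recruits a phosphatase to Mdm2, was at 15.84, 13.25 and 20.16 CPM in Chow and 24.02 and 24.82 CPM in MASH, with a difference of 0.57 on the log2 scale (SE 0.26, adjusted p 0.167, edgeR). The diets did not overlap for either gene.

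Cdkn1b (p27), a cyclin-dependent kinase inhibitor of the same family as Cdkn1a that is controlled mainly by FOXO factors and protein turnover, was at 58.49, 43.09 and 36.01 CPM in Chow and 70.47 and 82.89 CPM in MASH. The log2 fold change was 0.74 (SE 0.27, adjusted p 0.101, edgeR), and 0.95 (adjusted p 0.038) without Chow replicate 1. Its order among Chow libraries was the reverse of that of Cdkn1a: Chow replicate 1 was the highest for Cdkn1b and the lowest for Cdkn1a. Glb1, the lysosomal beta-galactosidase, was at 3.111, 2.958 and 1.523 CPM in Chow and 3.996 and 3.046 CPM in MASH. The diets overlapped, and the log2 fold change was 0.48 (SE 0.44, adjusted p 0.48, edgeR).

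Cdkn2a, whose locus gives a cyclin-dependent kinase inhibitor and the Mdm2 inhibitor Arf from overlapping exons, had 7 UMIs in all hepatocyte-like sums together, and its neighbour Cdkn2b had 18. Both were filtered out before the test. No more than 3 Cdkn2a UMIs were found in any of these 5 sums, and MASH replicate 1 had 0, where 3 counts would be 0.1463 CPM. A difference between diets in either gene was not detectable at this depth. Reads in introns were not counted in these matrices, and counting error only is covered by the limit of a 0.

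Of the 7 members tested in hepatocyte-like nuclei, 6 did not overlap between diets, all higher in MASH, while 29.3% of all genes tested were higher in MASH without overlap. Their median log2 fold change was 0.74 against -0.02 over all genes. The mRNA of p53 itself did not follow: Trp53 was at 49.82, 81.93 and 72.82 CPM in Chow and 64.25 and 55.25 CPM in MASH, with overlap, and differed by -0.19 on the log2 scale (SE 0.27, adjusted p 0.658, edgeR), which was 0.15 when no scaling was applied. Cholangiocyte, stellate, endothelial and macrophage markers were low in the hepatocyte-like sums, at 0.351% to 5.01% of the level in their own lineage. Several of these were nevertheless higher in MASH. Summed T and NK markers were at 2.992 to 7.965 CPM in Chow and 130.1 and 151.5 CPM in MASH. In MASH immune-like nuclei they were at 1402 and 1682 CPM. Their list holds Themis, which the study reports as induced in MASH hepatocytes. In the pericentral and periportal parts of the MASH libraries, defined below, Themis was at 32.53 to 210.1 CPM. The T cell gene Cd3e was at 0.1589 to 0.7975 CPM there. Summed hepatocyte markers were lower in MASH, at 9654 to 11120 CPM in Chow and 5572 and 5574 CPM in MASH. Summed macrophage markers were at 19.54 to 30.3 CPM in Chow and 84.21 and 55.42 CPM in MASH, and the part of all these markers in the members' values was not tested. For Eda2r the unscaled level in MASH was lower in immune-like nuclei (3.15 ± 1.23 CPM, SD, n = 2) than in hepatocyte-like nuclei (8.71 ± 1.13 CPM, n = 2), while in endothelial-like nuclei it was higher (12.14 ± 2.90 CPM, n = 2). Endothelial markers in the hepatocyte-like sums were at 26.24 to 37.46 CPM in Chow and 50.66 and 67.7 CPM in MASH, and their part in the Eda2r values was not tested.

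Of 28 p53 target genes listed apart from the members, 26 were tested in hepatocyte-like nuclei, 7 rose and 1 fell, with a median log2 fold change of 0.47. The share that rose was 26.9%, beside 9.22% of all genes. The list was chosen with earlier results of these data known, so this share is no independent evidence of direction. Psrc1, a microtubule-associated protein, rose by 4.21 on the log2 scale (SE 0.66, adjusted p 0.0123, edgeR), from 0.1049 to 0.5958 CPM in Chow to 9.192 and 4.814 CPM in MASH. Tnfrsf10b, a death receptor for TRAIL, rose by 3.23 (SE 0.41, adjusted p 0.00708), and the extracellular sulfatase Sulf2 by 2.59 (SE 0.56, adjusted p 0.0285). Phlda3, an inhibitor of AKT signalling, passed the test at 0 to 0.06431 CPM in Chow and 2.931 and 1.617 CPM in MASH, and no fold is given because the Chow sums held so few UMIs. The others that rose were the kinase Plk2 (2.52), the stress cytokine Gdf15 (1.88) and the stress-response gene Sesn2 (1.03), while the kinase Plk3 fell by 2.00, from 532.3 to 693.4 CPM in Chow to 152.6 and 151.7 CPM in MASH. Plk2, Gdf15, Sesn2 and Plk3 are named beyond the naming rule, after their values were seen. Of 10 regulators of p53, 0 passed the test with edgeR (1 at an unadjusted p under 0.05, median log2 fold change 0.41).

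The shares that rose in the next lists are likewise set beside 9.22% of all genes, with the same limit on how the lists were chosen. Among 18 genes of the cyclin-dependent kinase and RB arm, 3 rose (16.7%) and 0 fell, namely E2f2, an activator of S-phase genes (3.46, SE 0.55), Ccnd1, which encodes cyclin D1 (2.64, SE 0.45), and the RB relative Rbl1 (1.99, SE 0.42). Of 22 cell cycle genes, 7 rose (31.8%) and 0 fell, led by Mki67, a mark of cycling nuclei, which was at 0.2317 to 0.7074 CPM in Chow and 12.03 and 8.048 CPM in MASH (log2 fold change 4.57, SE 0.53, adjusted p 0.00535, edgeR), with Cenpe (4.34), Cenpf (4.15) and Top2a (3.87). Cenpe was at 0.06992 to 0.1929 CPM in Chow and 3.774 and 2.219 CPM in MASH, so the size of its fold rests on few UMIs. Of 24 lysosomal hydrolases, 3 rose (12.5%), among them Ctss (2.51) and Gusb (1.54), and Glb1 was not among those called. Ctss is high in macrophages, whose markers were also higher in the MASH sums, as given above.

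Of 40 tested genes of a senescence and secretory list taken from the study, 16 rose (40.0%) and 0 fell, with a median log2 fold change of 1.32. The study chose this list on these samples, so its count is no independent evidence of direction. Mmp12, a macrophage elastase, rose by 6.38 (SE 0.56, adjusted p 0.00255, edgeR). It was at 0.06431 to 0.1986 CPM in Chow and 11.86 and 7.371 CPM in MASH. In immune-like nuclei of the MASH libraries Mmp12 was at 406.5 and 512.3 CPM, and macrophage markers in the hepatocyte-like sums were higher in MASH, as given above. The part of macrophage RNA in the Mmp12 values was not tested. The EGF receptor ligand Areg rose by 4.29 (SE 0.63), from 0.0331 to 0.1398 CPM in Chow to 2.309 and 1.354 CPM in MASH. The Chow sums held few UMIs of Mmp12 and of Areg, so the size of both folds is uncertain. The plasminogen activator Plat also passed, at 0.03215 to 0.0662 CPM in Chow and 1.465 and 3.121 CPM in MASH, and no fold is given because the Chow sums held so few UMIs. Plau was at 0 to 0.06431 CPM in Chow and 0.7105 and 0.9778 CPM in MASH. Of 15 immediate-early and stress genes 1 rose (Klf4, 2.17), and 3 of 12 acute-phase genes fell, namely Mt1 (-5.99), Mt2 (-4.98) and Fgl1 (-2.92), with Chow replicate 3 the highest library for each.

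**Figure D2:**
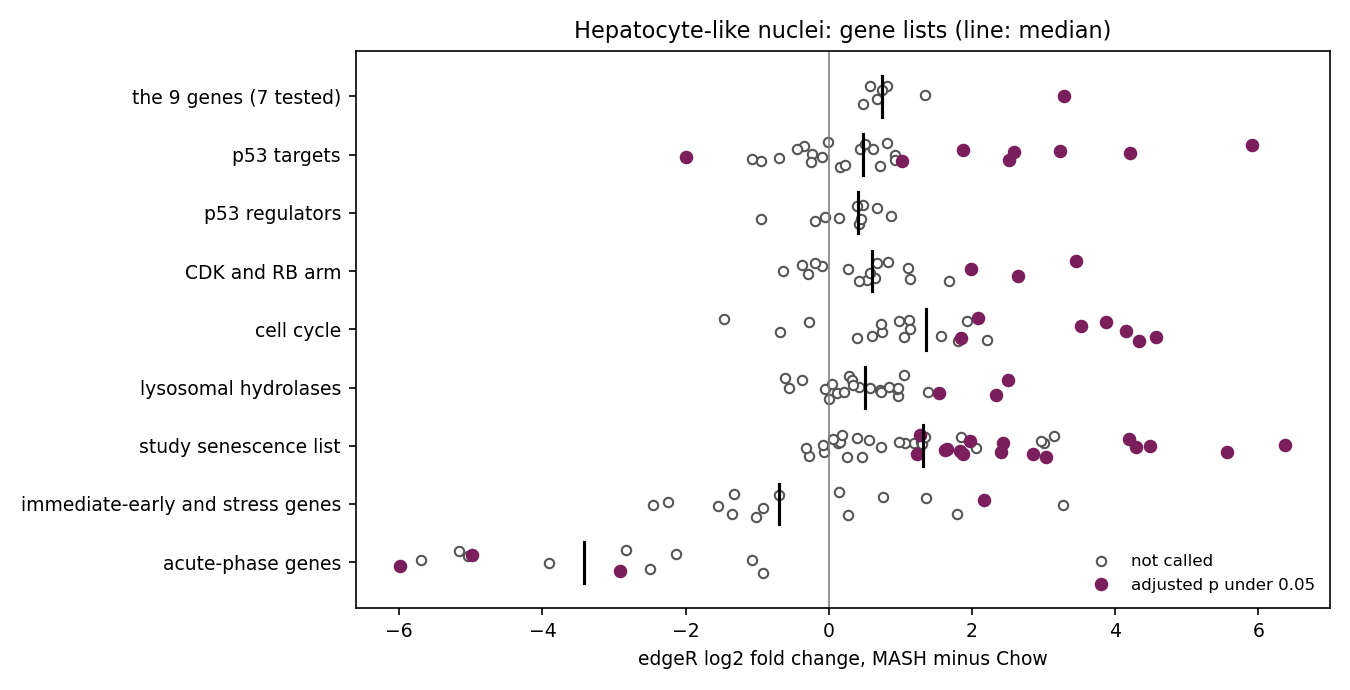
edgeR log2 fold change, MASH minus Chow, of every tested gene of each list in hepatocyte-like nuclei, filled where the adjusted p was under 0.05, with a line at each list's median. The members lie to the right of 0 with 1 filled point, Eda2r, while the p53 targets spread to both sides, 7 filled on the right and 1 on the left.

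In the other lineages no member passed the test. With edgeR, 0 of 5 members tested were called in stellate-like nuclei (1 at an unadjusted p under 0.05), 0 of 6 in endothelial-like nuclei (0), 0 of 5 in immune-like nuclei (1) and 0 of 4 in cholangiocyte-like nuclei (0). DESeq2 also called 0 in each. The shares of all genes called were 0.813% in stellate-like, 0.891% in endothelial-like, 0.375% in immune-like and 1.12% in cholangiocyte-like nuclei, so few genes of any kind passed in these smaller sums. The count in cholangiocyte-like nuclei rests on 1 Chow library and nothing is read from it.

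Mdm2 was the member whose diets stayed apart in the most lineages. In stellate-like nuclei it was at 49.35, 58.53 and 63.63 CPM in Chow and 98.99 and 96.99 CPM in MASH (log2 fold change 0.78, SE 0.31, adjusted p 0.312, edgeR). In endothelial-like nuclei it was at 89.14, 56.86 and 52.35 CPM in Chow and 102.5 and 109.1 CPM in MASH (0.64, SE 0.35, adjusted p 0.624). In immune-like nuclei it was at 77.56, 115.2 and 88.73 CPM in Chow and 142.5 and 143.3 CPM in MASH (0.62, SE 0.33, adjusted p 0.431). The log2 fold changes lay close to that in hepatocyte-like nuclei, and none passed. Without TMM scaling the diets overlapped for Mdm2 in endothelial-like nuclei. Hepatocyte markers in the sums of these 3 lineages were at 20.4% to 64.1% of their hepatocyte-like level. The part of hepatocyte RNA in these Mdm2 values was not tested. Genes higher in MASH without overlap were 15.5%, 13.3% and 15.8% of those tested in these 3 lineages. In cholangiocyte-like nuclei Chow was 1 library of 43 nuclei with 2 Mdm2 UMIs, so no fold is given.

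In immune-like nuclei Cdkn1a was at 20.02, 13.29 and 17.31 CPM in Chow and 38.9 and 40.48 CPM in MASH, which gave 1.19 on the log2 scale (SE 0.38, adjusted p 0.218, edgeR). The Chow library that was lowest in hepatocyte-like nuclei, replicate 1, was the highest here. That immune-like sum also held 29950 CPM of neutrophil markers against 975.2 to 2076 CPM in the other libraries, and its part in the value was not tested. In endothelial-like nuclei the Cdkn1a log2 fold change was 0.04 (SE 0.42) and in stellate-like nuclei 0.47 (SE 0.70), with overlap in both. Trp53inp1 and Ccng1 had negative fold changes in immune-like nuclei, -0.51 (adjusted p 0.606) and -0.61 (adjusted p 0.548, edgeR), which turned to 0.04 and 0.12 when nuclei were gated by Ptprc alone. Glb1 was tested outside hepatocytes only in endothelial-like nuclei, at 7.074, 17.5 and 15.93 CPM in Chow and 29.29 and 19.33 CPM in MASH (0.95, SE 0.55, adjusted p 0.659). Eda2r was too sparse to test there, at 5.659, 0 and 6.828 CPM in Chow and 16.48 and 9.095 CPM in MASH.

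**Figure D3:**
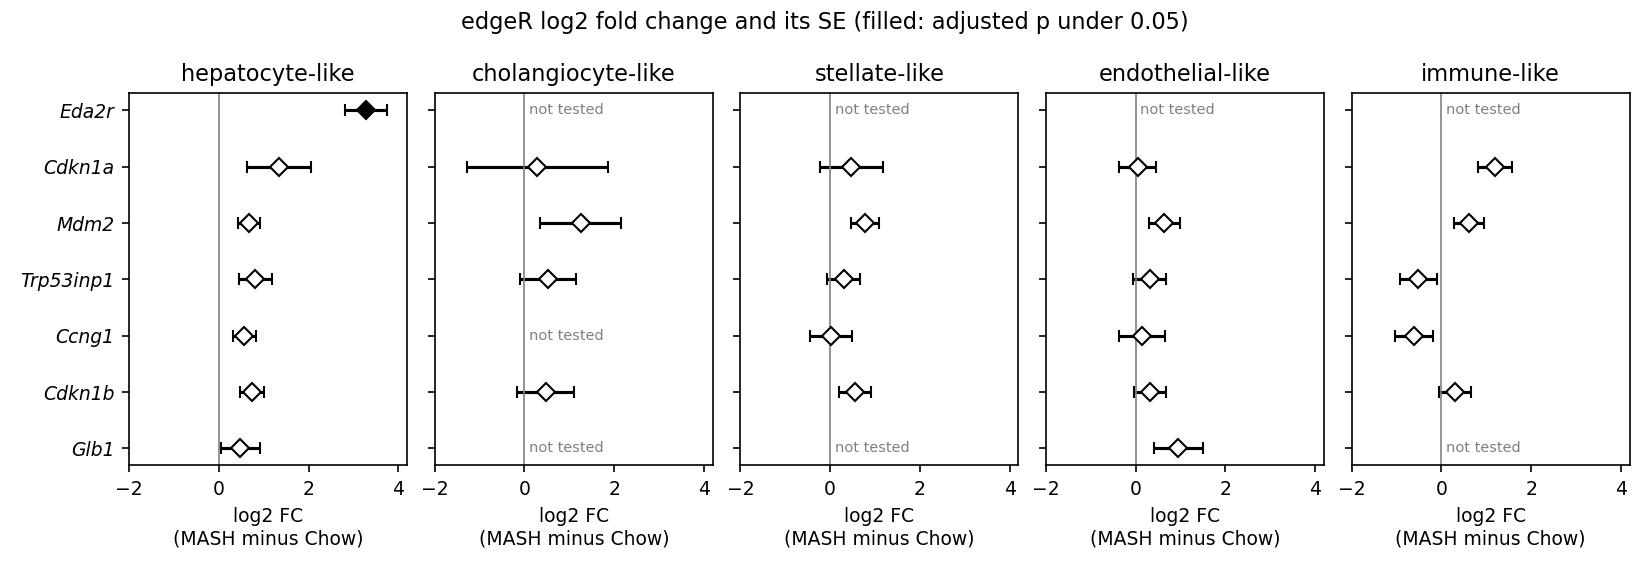
edgeR log2 fold change, MASH minus Chow, with its SE, of each member except Cdkn2a and Cdkn2b in each lineage. Points are filled where the adjusted p was under 0.05, and members not tested are marked. The only filled point is Eda2r in hepatocyte-like nuclei (3.28), and Mdm2 lies above 0 in the 4 lineages with replicated Chow sums (0.62 to 0.78). Cholangiocyte-like values rest on 1 Chow library.

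Whether the diet difference itself differed between lineages was tested in 1 model over 23 sums, against hepatocyte-like nuclei and with the library as a block. No member was called by edgeR in stellate-like (0 of 6 at an unadjusted p under 0.05), endothelial-like (1), immune-like (2) or cholangiocyte-like nuclei (0), while 4.22%, 3.4%, 5.44% and 0.459% of all genes were. The nearest was Trp53inp1 in immune-like nuclei, whose diet difference was -1.22 below that of hepatocyte-like nuclei on the log2 scale (SE 0.41, adjusted p 0.088, edgeR). Ccng1 in immune-like nuclei (-1.03, SE 0.41, adjusted p 0.169) and Cdkn1a in endothelial-like nuclei (-1.75, SE 0.63, adjusted p 0.156) followed. For Mdm2 the differences were 0.11 (SE 0.34), -0.04 (SE 0.34) and 0.08 (SE 0.33) in stellate-like, endothelial-like and immune-like nuclei. The part of hepatocyte RNA in these differences was not tested. Eda2r was filtered out of this model, since its counts outside hepatocytes were too low.

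Other p53 targets passed the test where members did not. Gdf15 rose in stellate-like nuclei by 3.24 (SE 0.61, adjusted p 0.042, edgeR), from 1.828 to 4.502 CPM in Chow to 37.58 and 26.79 CPM in MASH, and in endothelial-like nuclei by 2.65 (SE 0.57, adjusted p 0.0499). Plk2 rose in immune-like nuclei by 3.3 (SE 0.5, adjusted p 0.025), from 2.502 to 8.657 CPM to 59.88 and 50.06 CPM. Each was the only one of 16, 18 and 16 tested p53 targets to be called in its lineage. Gdf15 and Plk2 also rose in hepatocyte-like nuclei, as given above. Hepatocyte markers in the MASH sums of these 3 lineages were at 20.4% to 49.6% of their hepatocyte-like level. The part of hepatocyte RNA in these Gdf15 and Plk2 values was not tested. Over all nuclei together, where the share of each lineage and the level within it cannot be told apart, Eda2r was again the only member called, at 1.224, 0.916 and 0.5491 CPM in Chow and 7.086 and 5.502 CPM in MASH (2.81, SE 0.47, adjusted p 0.0149, edgeR), where 16% of all genes passed and 10.6% were higher.

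Levels between lineages are given as CPM without TMM scaling, over sums of at least 20 nuclei (5 libraries, 3 for cholangiocyte-like nuclei), as a description, since the clusters were built from the same counts. Means for cholangiocyte-like nuclei held 1 Chow and 2 MASH sums and the others 3 and 2, so their places mix lineage with diet. Within MASH, Trp53inp1 was at 214.5 CPM in hepatocyte-like and 198.3 CPM in cholangiocyte-like nuclei. Cdkn1a was at 28.5 ± 2.38 CPM (SD, n = 5) in endothelial-like, 28.1 ± 20.6 CPM in hepatocyte-like, 25.1 ± 13.3 CPM in immune-like, 24.1 ± 9.08 CPM (n = 3) in cholangiocyte-like and 15.9 ± 8.29 CPM in stellate-like nuclei. These neighbours all lay within 1 SD of each other. Between libraries Cdkn1a ranged from 3.607 to 54.22 CPM in hepatocyte-like, 2.015 to 23.53 CPM in stellate-like, 11.52 to 43.64 CPM in immune-like and 25.86 to 31.54 CPM in endothelial-like nuclei.

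Mdm2 was highest in hepatocyte-like nuclei (136.9 ± 55.3 CPM) and lowest in stellate-like nuclei (70.6 ± 23.1 CPM), and Trp53inp1 ran from 176.0 ± 56.6 CPM in cholangiocyte-like to 66.2 ± 14.6 CPM in endothelial-like nuclei. Ccng1 ran from 30.2 ± 13.4 CPM in immune-like to 11.6 ± 10.6 CPM in cholangiocyte-like nuclei, and Eda2r from 7.42 ± 5.25 CPM in endothelial-like to 1.70 ± 1.49 CPM in cholangiocyte-like nuclei. Cdkn1b ran from 145.7 ± 51.1 CPM in cholangiocyte-like to 61.4 ± 28.7 CPM in hepatocyte-like nuclei. In each of these orders neighbouring lineages lay within 1 SD.

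Glb1 showed the one gap between neighbours. It was at 17.4 ± 2.19 CPM in immune-like, 16.9 ± 6.66 CPM in endothelial-like, 13.3 ± 11.5 CPM in cholangiocyte-like and 9.59 ± 1.36 CPM in stellate-like nuclei, and only 3.06 ± 1.22 CPM in hepatocyte-like nuclei. Cdkn2a reached 3.10 ± 2.34 CPM in endothelial-like nuclei and Cdkn2b 2.07 ± 2.32 CPM, with 26 and 36 UMIs in total over the 5 lineages. Trp53 differed little, from 72.5 ± 17.2 CPM in endothelial-like to 58.6 ± 19.5 CPM in cholangiocyte-like nuclei. Hepatocyte markers were found in the sums of the other lineages at 20.4% to 64.1% of their hepatocyte-like level, so RNA from hepatocytes was present in all of them. Its part in the members' levels there was not tested.

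**Figure D4:**
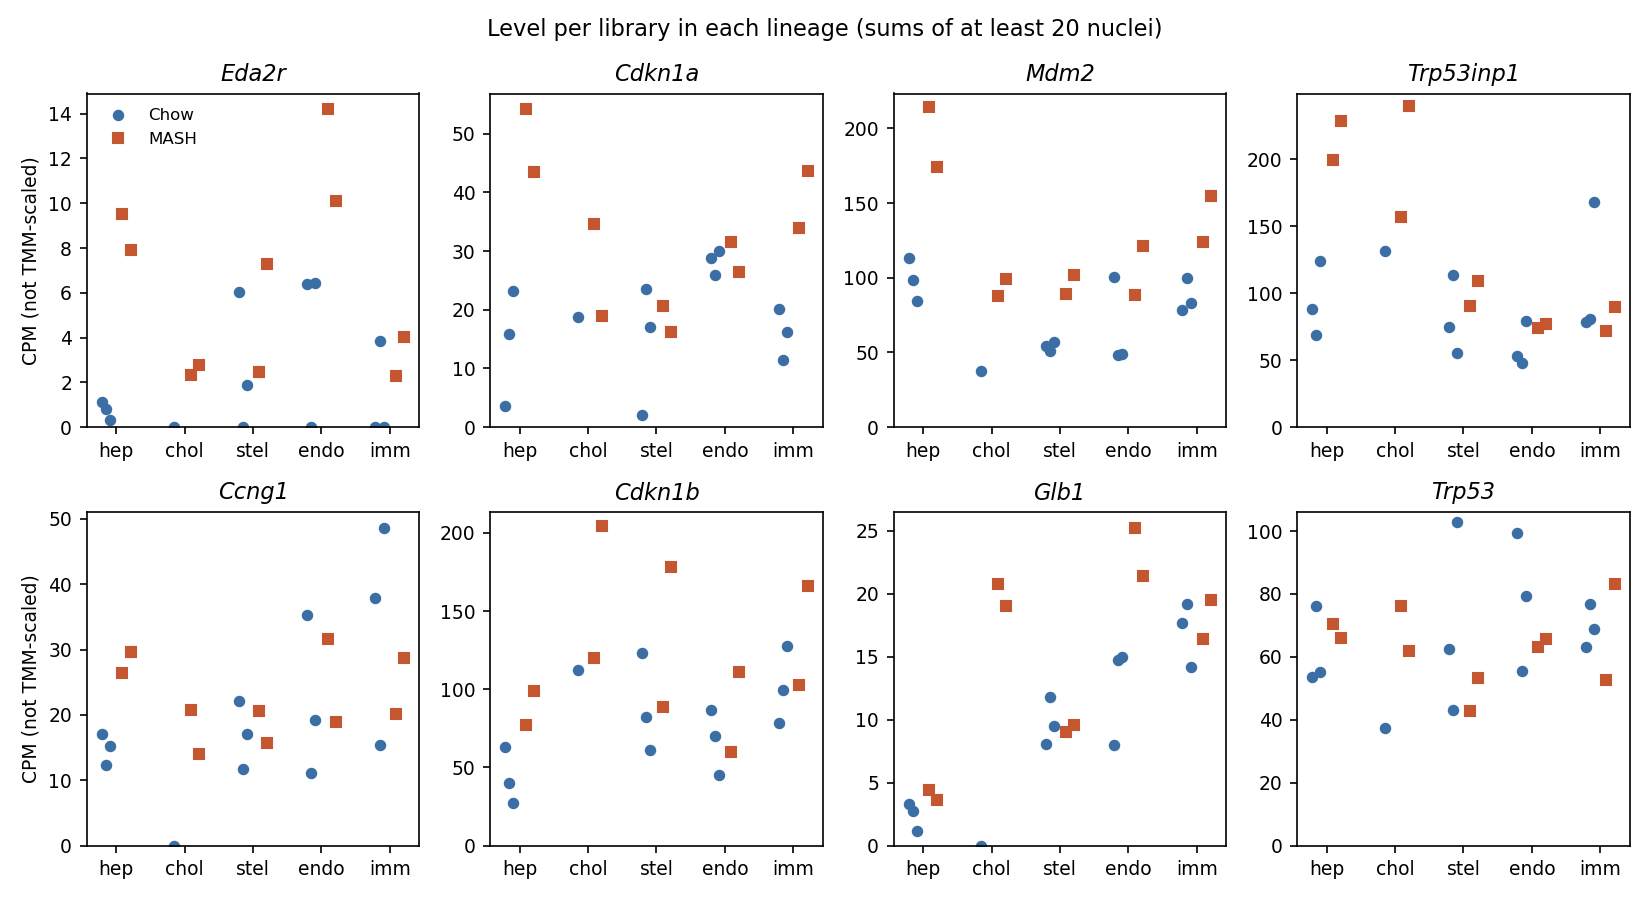
Unscaled CPM of each member except Cdkn2a and Cdkn2b, and of Trp53, per library in the 5 lineages (hep, hepatocyte-like, chol, cholangiocyte-like, stel, stellate-like, endo, endothelial-like, imm, immune-like). Circles are Chow and squares MASH. Glb1 is lowest in hepatocyte-like nuclei, at 3.06 CPM on average, and Eda2r separates the diets there and, on few UMIs, in endothelial-like nuclei.

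The members were next compared with each other for a shared pattern, as Pearson's r of log2(CPM + 1) over the 25 sums of 5 lineages in 5 libraries, which share libraries, depth and cell origin, so no p is given. The pair with the highest r was Cdkn1a and Mdm2, at 0.83. That value rested on the smallest sums: over the 23 sums of at least 20 nuclei it was 0.35. Mdm2 and Glb1 went from 0.62 to 0.11 and Cdkn1a and Glb1 from 0.58 to 0.17 in the same way. Among the pairs whose r did not fall were Ccng1 and Glb1 (0.53 and 0.59), Mdm2 and Ccng1 (0.40 and 0.52) and Mdm2 and Eda2r (0.50 and 0.51). Trp53inp1 and Glb1 were opposed in both (-0.31 and -0.22). Cdkn1a and Trp53inp1, a pair of targets of the same factor, had an r of -0.12 over 25 sums and 0.23 over 23.

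Among 12187 genes compared over the 25 sums, those nearest to Mdm2 were Zc3h4, Med15 and Aldh16a1 (r 0.98 each), and those nearest to Cdkn1a were Rassf3 (0.88), Pgrmc2 and Msantd4 (0.87 each). Nearest to Ccng1 were Flii (0.95), Gatad2a and Atp6v1a (0.94 each), to Glb1 Rbl1 (0.93), Frg1 and Commd10 (0.92 each), and to Trp53inp1 Cblc (0.83), Zfp7 and Dixdc1 (0.79 each). Nearest to Cdkn1b were Tnrc18, Trrap (0.80 each) and Ankrd12 (0.77), and to Eda2r Setd5 (0.80), Rad51b and Olfr1238 (0.78 each). No member was among the 3 nearest genes of another. Over the 23 sums of at least 20 nuclei these r were 0.56 to 0.60 for Cdkn1a and 0.80 to 0.83 for Mdm2, so the likeness for both rested in part on the smallest sums, and 0.72 to 0.93 for the other members.

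Within single hepatocyte-like nuclei the members could be followed apart from lineage and library. Each nucleus was thinned to 1000 UMIs, and the number of nuclei with a UMI of both genes was set against the number that their separate frequencies in each library gave. Over the 5 libraries Cdkn1a and Mdm2 were found together in 138 nuclei against 101 expected (ratio 1.36), and Cdkn1a and Trp53inp1 in 136 against 97.5 (1.40). Cdkn1a and Ccng1 met in 26 nuclei against 14.5 (1.80), and Cdkn1a and Eda2r in 9 against 3.40 (2.64). The ratio with Ccng1 was 2.44 and 2.19 in the MASH libraries, while Chow had 0, 1 and 2 such nuclei against 0.342, 1.53 and 2.64 expected, too few to read. For pairs of 8680 genes found in at least 1% of nuclei, the median ratio was 1.0 and the 5th to 95th percentile 0.723 to 1.30.

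The excess with Trp53inp1 was alike in the libraries that could be read, at 1.44 in Chow replicate 2, 1.39 in Chow replicate 3, 1.42 in MASH replicate 1 and 1.38 in MASH replicate 2. With Mdm2 it was 0.859, 1.35, 1.43 and 1.5 in the same order, so Chow replicate 2 did not show it. Eda2r and Trp53inp1 had a ratio of 1.68 (21 nuclei against 12.5), while Mdm2 and Trp53inp1, the most abundant pair, had 1.08 (447 against 413). Pairs with Cdkn1b, which is no classical p53 target, lay between 0.885 and 1.12. Among the pairs without Eda2r, those with a ratio above 1.30 thus all held Cdkn1a. Eda2r was found in 0.0241% to 0.901% of nuclei per library, under the 1% asked of the genes behind that percentile. Its ratios rest on low counts and are not read against 1.30.

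The study followed senescence genes in disease-associated hepatocytes (daHep). Thinned hepatocyte-like nuclei were therefore split by a UMI of Nrg1, Anxa2 or Sox4, which mark daHep, and none of which is a member. Marker-positive nuclei numbered 17, 68 and 136 in Chow replicates 1 to 3 and 1060 and 764 in MASH, or 22.7% and 16.4% of the MASH nuclei. These shares depend on the thinning. Without it, 51.9% and 41.8% of MASH and 1.22% to 7.14% of Chow hepatocyte-like nuclei held a marker UMI. Many nuclei counted as negative in MASH thus held a marker UMI at full depth. Positive and negative nuclei were summed per library and compared with the library as a block, in 4 libraries, since Chow replicate 1 had under 20 positive nuclei. Values are CPM of the thinned sums. In MASH 4.19% of genes passed in either direction and 1.79% as higher in positive nuclei.

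Cdkn1a rose in marker-positive MASH nuclei: it was at 83.0 CPM in positive against 47.2 CPM in negative nuclei of MASH replicate 1 and at 66.8 against 40.7 CPM in replicate 2, a log2 difference of 0.74 (SE 0.16, adjusted p 0.000457, edgeR). Mdm2 rose with it, at 257.5 against 197.9 CPM and 210.7 against 166.8 CPM (0.33, SE 0.09, adjusted p 0.0133), but without the filter on low counts its difference of 0.31 was not called (adjusted p 0.0539, edgeR). Trp53inp1 differed the same way in both libraries, 227.4 against 179.9 CPM and 222.5 against 186.8 CPM, and did not pass (0.26, SE 0.09, adjusted p 0.0844). It was called with the split by Nrg1 alone (0.37, adjusted p 0.0122, edgeR) and without scaling (0.3, adjusted p 0.035). The remaining members did not pass, with log2 differences of 0.14 for Cdkn1b, 0.31 for Glb1, 0.03 for Eda2r and -0.22 for Ccng1.

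Eda2r, the member with the largest diet difference, went in opposite directions in the MASH libraries: it was at 5.66 CPM in positive and 10.3 CPM in negative nuclei of MASH replicate 1 and at 11.8 and 5.38 CPM in replicate 2, on 6 to 37 UMIs. With either MASH library left out, 0 members were called in MASH, with Cdkn1a at 0.68 to 0.79 on the log2 scale. Without thinning, 5 members were called. Trp53inp1 (0.41, adjusted p 1.1e-08, edgeR) and Eda2r (0.7, adjusted p 0.00903) were among them, and Ccng1 turned to 0.34. In Chow 0 of 7 members passed (0 at an unadjusted p under 0.05, edgeR), where 0.35% of genes did and positive nuclei were few, and the difference between diets was called for 0 of 7 members (1 at an unadjusted p under 0.05), as for 0.0787% of genes. Summed cholangiocyte markers were also higher in positive MASH nuclei, 139.6 against 87.73 CPM and 210.7 against 105.6 CPM, as were immediate-early and stress genes, 1206 against 844.8 CPM and 1022 against 748.1 CPM. Their part in the Cdkn1a and Mdm2 differences was not tested.

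By position in the lobule the p53 targets did not form 1 group. Hepatocyte-like nuclei of each library were ranked by pericentral minus periportal marker score and cut into 3 equal parts, and the highest part (pericentral) was compared with the lowest (periportal), at 1421 to 3044 nuclei each, with the library as a block. Values are CPM without TMM scaling. In Chow, 24.4% of genes passed, 12.9% as higher in the pericentral part and 11.5% as lower. Of the 7 members tested, 4 passed, 3 of them higher and 1 lower in the pericentral part.

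Trp53inp1 was at 88.8, 87.0 and 152.9 CPM in the pericentral part of Chow replicates 1 to 3 and at 67.0, 52.1 and 100.1 CPM in the periportal part (log2 difference 0.48, SE 0.08, adjusted p 0.00252, edgeR). Mdm2 was at 135.8, 114.6 and 93.4 CPM against 91.5, 83.6 and 77.3 CPM (0.33, SE 0.07, adjusted p 0.0124). Without Chow replicate 2 the Mdm2 difference was 0.31 (adjusted p 0.0672, edgeR). Ccng1 was also higher in the pericentral part (0.47, SE 0.12, adjusted p 0.0193), and without Chow replicate 3 this was 0.37 (adjusted p 0.109, edgeR). Cdkn1a went the other way in all 3 Chow libraries, at 3.02, 13.8 and 18.0 CPM in the pericentral and 3.75, 18.8 and 26.5 CPM in the periportal part (-0.59, SE 0.10, adjusted p 0.00304). Acute-phase genes were at 1309 CPM in the pericentral and 8736 CPM in the periportal part of Chow replicate 1, and their part was not tested.

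In MASH Trp53inp1 was higher on the periportal side. It was at 173.7 and 198.3 CPM in the pericentral part and at 211.3 and 264.3 CPM in the periportal part (-0.38, SE 0.09, adjusted p 0.0417, edgeR), where 7.88% of genes passed. This was not called without scaling (-0.35, adjusted p 0.0584) or when either MASH library was left out. The test of the difference between diets called Trp53inp1 at -0.86 (SE 0.12, adjusted p 0.013), as 1.95% of genes were. Mdm2 had the same sign, at 197.2 and 163.6 CPM against 212.0 and 186.1 CPM in MASH, and its difference between diets was -0.50 (SE 0.12, adjusted p 0.0707). For Cdkn1a the difference between diets was 0.35 (SE 0.14, adjusted p 0.256). The Trp53inp1 difference was -0.91 (adjusted p 0.175) without MASH replicate 1 and -0.79 (adjusted p 0.288, edgeR) without MASH replicate 2, so its call needed both. Themis was at 188.5 CPM in the pericentral and 32.5 CPM in the periportal part of MASH replicate 1 and at 210.1 and 45.5 CPM in replicate 2. The leukocyte gene Ptprc was at 17.1 and 16.6 CPM and at 16.4 and 20.7 CPM. The part of these nuclei or transcripts in the Trp53inp1 difference was not tested.

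**Figure D5:**
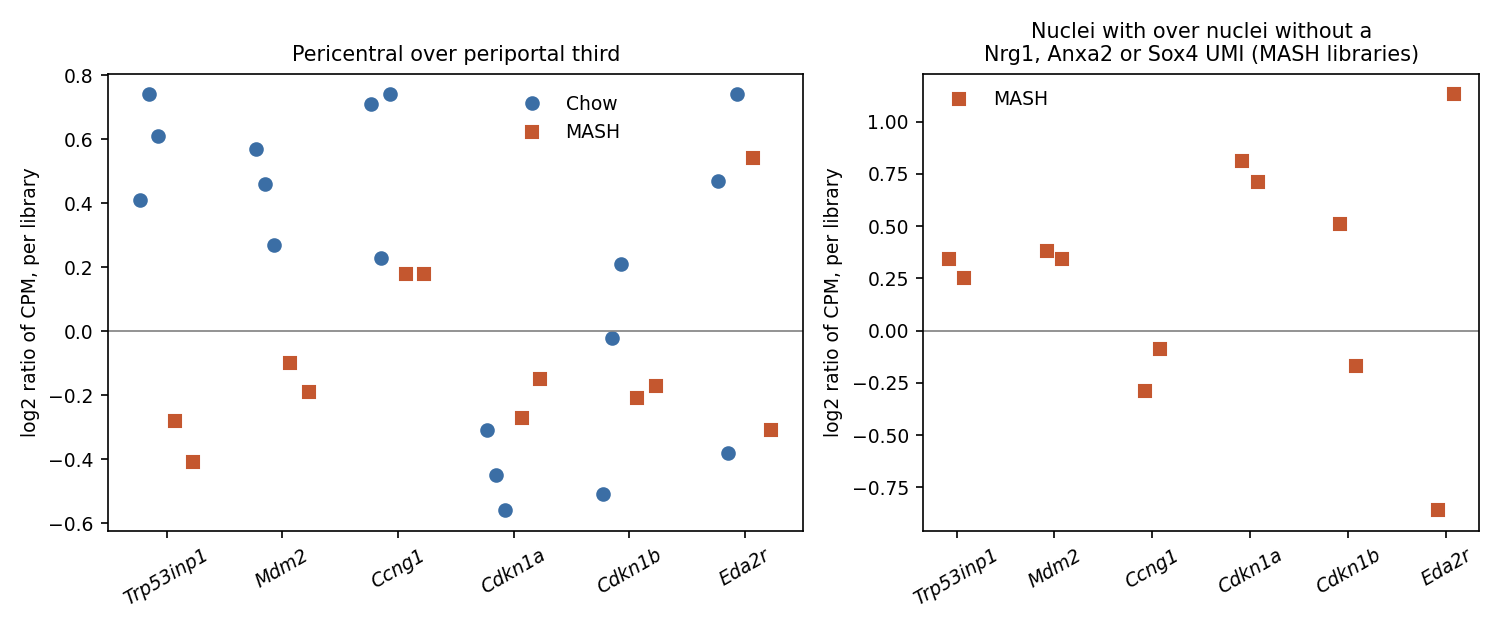
Log2 ratio of the level in pericentral over periportal nuclei in all libraries (zone) and in marker-positive over marker-negative nuclei in the MASH libraries (daHep markers), 1 point per library, for 6 members. In the zone panel Trp53inp1 lies above 0 in the 3 Chow libraries (0.41, 0.74 and 0.61) and below 0 in both MASH libraries (-0.28 and -0.41). In the daHep panel Cdkn1a lies above 0 in both MASH libraries (0.81 and 0.71).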

How the data were processed

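The authors sorted liver nuclei, made droplet-based single-nucleus libraries and deposited raw UMI counts per gene and nucleus. Per the labels and the study's methods, reads were counted with Cell Ranger 8.0.1 on GRCm38, leaving out reads in introns. Cell type names and doublet calls were not used here from the study and were rebuilt, so differences from it can come from the names.

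Nuclei with at least 300 genes were kept, and the highest doublet scores were removed at 0.8% per 1000 nuclei, since the automatic threshold marked from 0 to 14 nuclei per library. Nuclei were clustered in scanpy 1.11.5 (3000 variable genes, 15 components, 20 neighbours, Leiden resolution 0.6, 20 clusters). A lineage name needed at least 3 markers and a mean marker log2 fold of 2, a median doublet score under 0.1 and a median mitochondrial share under 10%. Hepatocyte-like clusters were those where no other class reached 3 markers and hepatocyte markers led the named others.

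UMI counts were summed per library and lineage (at least 20 nuclei) and compared with edgeR 4.0.16 quasi-likelihood tests in R 4.3.3 (TMM, filterByExpr, Benjamini-Hochberg over all genes tested, two-sided, threshold 0.05). Alternatives were DESeq2 1.42.0, other scalings, filters, gates, a replicate block and leaving out each library. The scripts were tested on simulated data. Total UMIs per library set the precision, and limits of a 0 cover counting error only.

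The members and gene lists were chosen with earlier results of these data known. The text names each member, p53, up to 4 genes per list and comparison with the largest fold among those called without overlap between diets, and the 3 genes most like each member with at least 200 UMIs. For the nearest genes a mean of at least 5 CPM was asked. Promoter sequences are from RefSeq. 1 gene that the naming rule picks is not reported here.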

Additional observations from a re-analysis of the deposited data

Results flagged for a closer look

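The pericentral minus periportal difference of Trp53inp1 in hepatocyte-like nuclei was itself different between diets: it changed by -0.86 on the log2 scale from Chow to MASH (SE 0.12, adjusted p 0.013, edgeR's interaction test with the library as a block). The pericentral over periportal log2 ratio was 0.41, 0.74 and 0.61 in the 3 Chow libraries and -0.28 and -0.41 in the MASH libraries, so every Chow library lay on one side of 0 and both MASH libraries on the other.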

How the results depend on the processing

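The Eda2r calls on diet in hepatocyte-like nuclei and over all nuclei were lost when either MASH library was left out, and Cdkn2a and Cdkn2b were too sparse for any statement on diet. In hepatocyte-like nuclei 1 member was called. This was 2 without scaling (Trp53inp1 at 1.19, adjusted p 0.0451, edgeR; the median of all genes moved from -0.02 to 0.29), 3 with Storey's q-values, and 0 to 2 with 1 library left out. Over all nuclei it was 2 with Storey's q-values and 0 to 2 with 1 library left out. Storey's q-values, the adjustment used by the study, added Mdm2 (0.67, q 0.0466, edgeR) and Cdkn1b (0.74, q 0.0475) in hepatocyte-like nuclei. Over all nuclei they added Cdkn1b (0.73, q 0.0421, edgeR). DESeq2 called Eda2r alone. The number of genes called went from 2080 to 3469 with DESeq2 and 3955 with Storey's q-values, and to 156 to 2847 with 1 library left out.

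The replicate numbers are shared by the labels of both diets, but same-numbered libraries did not deviate together (correlation -0.21 over 2 pairs). With 2 pairs this cannot tell whether they share more than a number. With the replicate block, 3 members were called in hepatocyte-like nuclei, adding Cdkn1a (2.44, adjusted p 0.0419, edgeR) and Trp53inp1 (1.25, adjusted p 0.0286), and 2 over all nuclei. Chow replicate 3 has no same-numbered MASH library, so in that fit the diet difference rested on replicates 1 and 2 alone. Little was left there to measure the spread. In hepatocyte-like nuclei Chow replicate 3 was the Chow library nearest to MASH for both added genes. For cholangiocyte-like nuclei neither the block nor leaving out a library could be fitted.

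For the lineage by diet test, 1 member was called in immune-like nuclei with RLE size factors and without a filter, and 1 in endothelial-like nuclei without a filter, with 0 to 1 when 1 library was left out in both. In the daHep marker split in MASH, 1 member was called without a filter, where Mdm2 was lost, and 5 without thinning, and 0 to 2 with 1 library left out. In the zone split the MASH count was 0 without scaling and 0 to 1 with 1 library left out, the count in Chow 3 to 4, and the count for the difference 2 without a filter, 2 without scaling and 0 to 2 with 1 library left out. In the daHep marker split in MASH, Trp53inp1 was called without scaling, without thinning and with the split by Nrg1 alone. The r of Cdkn1a and Mdm2 was 0.35 over sums of at least 20 nuclei.

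Signs turned in members that did not pass: Trp53 to 0.15 in hepatocyte-like and 0.05 in all nuclei without scaling, Ccng1 in stellate-like nuclei to -0.17 with doublets kept and -0.05 with the marker gate, Ccng1, Trp53inp1 and Trp53 in immune-like nuclei to 0.12, 0.04 and 0.05 with the gate, and Ccng1 in the daHep split to 0.34 without thinning. With 1 library left out, folds ranged from -0.24 to 0.92 for Cdkn1a and -0.27 to 0.34 for Ccng1 in stellate-like nuclei, from -0.27 to 0.34 and -0.44 to 0.65 in endothelial-like nuclei, from -0.27 to 0.07 for Trp53 in immune-like nuclei and from -0.43 to 0.49 for Cdkn2a in all nuclei. In the daHep split they ranged from -0.86 to 10.18 for the Cdkn1a difference between diets, -0.21 to 0.48 for Cdkn1b and -0.88 to 1.09 for Eda2r in MASH, and in the zone split from -0.10 to 0.45 (Chow) and -0.32 to 0.51 (MASH) for Eda2r and -0.62 to 0.43 for Glb1 in MASH. The causes of these changes were not tested. A fit without 1 MASH library assumes that the remaining one varies like the Chow libraries.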
